A study of Homo sapiens with 3 samples.

Results

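The BCL2 family genes measured here are 9 of the genes that set whether a cell keeps or loses its mitochondrial outer membrane: BCL2, BCL2L1, MCL1, BAK1, BCL2L11, BAD, BIK, BMF and HRK. They were found by their symbol among 41000 gene probes of a dual-colour Agilent whole human genome array, which gave 18 probes and 36 spots on each array. The 9 genes stand among 18611 genes with a value, and 8 of them are among the 17457 genes measured outside columns 1 to 9 of the spot grid, BIK being the exception. RNA came from YB5, a clone of the colon cancer line SW48 that carries 1 GFP reporter copy whose CMV promoter is silenced by methylation. Cells received decitabine (25 nM), carboplatin (20 µM) or the combination in 4 daily doses from day 1 to day 4, with harvest on day 6. The control cells received DMSO, the diluent, although the sample titles call them untreated. Each treatment was measured on 1 array, and all 3 arrays lie on 1 slide. Treated RNA carried Cy3 and control RNA Cy5 on every array, with no dye swap, so a dye preference of a probe is part of each value. It is not stated whether 1 control extract served all arrays. Since no treatment has a second array, every value below is a description of these arrays, without a test or a p-value. The arrays are called decitabine-labelled, carboplatin-labelled and combination array after their sample labels.

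Proteins of this family meet at the mitochondrial outer membrane. BCL2, BCL-XL (the long product of BCL2L1) and MCL1 keep it intact by holding the other members. BAK1 encodes BAK, which opens pores through which cytochrome c leaves, and the BH3-only proteins BIM (BCL2L11), BAD, BIK, BMF and HRK sense damage or lost survival signals and bind the survival proteins. Decitabine traps DNA methyltransferases and lowers DNA methylation, while carboplatin crosslinks DNA, and the study asked what a platinum drug adds to decitabine.

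A log2 change is the treated over the control signal of a probe after background correction and loess normalization of its array. A gene counted as risen or fallen where its probe of highest mean signal differed by 1.5-fold or more, which is 0.585 on the log2 scale. Error within an array was read from 264 probes with 10 spots each, whose pooled SD was 0.0786, 0.0736 and 0.0757 log2 units on the decitabine-labelled, carboplatin-labelled and combination arrays. These SDs describe spots of 1 hybridization and not cultures.

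Columns 1 to 9 of the grid, with 10.1 % of the spots, stood apart on the decitabine-labelled array. The median log2 change there was 0.75, against -0.02 in the other columns, and the median control signal was 174 against 321. On the carboplatin-labelled and combination arrays the median change in these columns was -0.03 and 0.01. The main values therefore leave these columns out on every array, and probes found only there are given apart. The study named 146 genes raised by carboplatin under its top annotation categories, mitochondrion and apoptotic process. They are a part of the genes it counted as raised. Of these 146 genes, 145 were measured over all columns but only 92 outside columns 1 to 9. Of these 92, 54 rose on the decitabine-labelled array, 15 on the carboplatin-labelled array and 52 on the combination array. All 53 genes listed as lowered were measured outside these columns, and 39, 4 and 37 of them fell on these arrays. BCL2L1, MCL1 and BAK1 are in the list of genes raised by carboplatin. These lists were thus met more often on the decitabine-labelled than on the carboplatin-labelled array, and whether the labels of the single-drug arrays are exchanged was not tested. Of 7 measured markers of colon epithelium, all were well above background in each channel on the arrays of the single drugs, and 6 were so on the combination array. Of 6 markers of blood, vessel, connective tissue and muscle cells, none was above background in each channel on the decitabine-labelled and combination arrays, and 1, CD3E, was so on the carboplatin-labelled array.

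Among the 8 genes measured outside columns 1 to 9, the largest movements were a fall of 1 BCL2 probe and rises of BCL2L1 and BAK1. This BCL2 probe, named by a RefSeq transcript, is not the brightest of its gene. By the brightest probe of each gene, 2 of the 8 genes rose on the decitabine-labelled array and none fell, beside 5.12 % of all genes that rose and 4.9 % that fell. On the carboplatin-labelled array 0 rose and 0 fell, beside 2.73 % and 1.41 % of all genes. On the combination array 2 rose and 0 fell, beside 7.39 % and 5.82 % of all genes. The risers were BCL2L1 and BAK1 each time. The median log2 change of the 8 genes was 0.13, 0.22 and 0.03 on the 3 arrays in the same order, against -0.001, -0.0031 and 0.0053 over all genes. With each array centred on its median in place of loess, 0 members rose and 2 fell on the decitabine-labelled array (BAD and HRK) and on the combination array (BAD and BMF), beside 24.9 % and 25.5 % of all genes called in either direction. By the scanner software's own ratio 2 members rose and 1, BMF, fell on these arrays, beside 20.3 % and 24.2 % of all genes. Median centring placed the median of all genes at -0.118, -0.1283 and -0.0972.

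**Figure D1:**
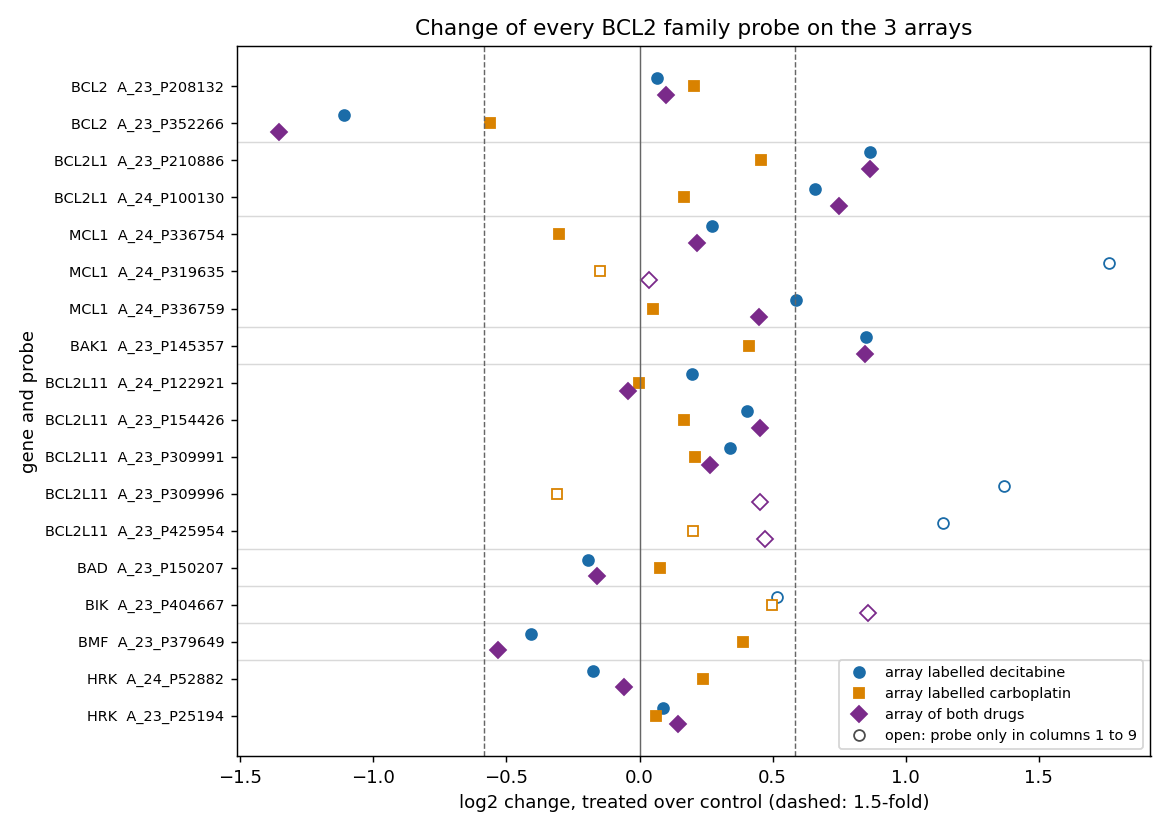
Log2 change (treated over control, x axis) of the 18 probes of the 9 genes (y axis), with 1 symbol per array; open symbols are probes found only in columns 1 to 9, from a normalization over all columns, and dashed lines mark 1.5-fold. Both BCL2L1 probes and BAK1 lie to the right of the line on the decitabine-labelled and combination arrays, 1 BCL2 probe lies at -1.11 and -1.36 there while the other lies near 0, and the open decitabine symbols of MCL1 and BCL2L11 lie at 1.14 to 1.76.

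BCL2 is the founding survival gene of the family. Its probes gave different answers. Probe A_23_P352266, named by a RefSeq transcript of BCL2 and placed at chr18:60790723-60790782 (GRCh37, minus strand) with all 60 bases, was spotted 10 times, 6 of them outside columns 1 to 9. Its control level was 9.20, 9.20 and 9.19 on the log2 scale on the decitabine-labelled, carboplatin-labelled and combination arrays, and its treated level was 8.09, 8.64 and 7.84. All treated levels lay below all control levels, and the control levels spanned 0.008. How many of all genes show such a separation was not counted, here or for the genes below. The control levels may come from 1 extract, so their span does not measure a spread between cultures. The log2 change was -1.11 ± 0.0689 (SD of 6 spots) on the decitabine-labelled array, a ratio of 0.463. It was -0.56 ± 0.0512 (SD of 5 spots, 1 left out as an outlier) on the carboplatin-labelled array, a ratio of 0.677 that did not reach the 1.5-fold mark. It was -1.36 ± 0.0501 (SD of 6 spots) on the combination array, a ratio of 0.391. Under 6 other settings that change probe values, this probe lay between -1.55 and -0.64, between -0.83 and -0.56, and between -1.74 and -1.28 on the 3 arrays, below 0 in every case. In bulk RNA, fewer cells that express a gene and less of its RNA per cell cannot be told apart.

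The brighter BCL2 probe, A_23_P208132, is named by an older sequence record outside RefSeq. The files place only 36 of its 60 bases, at chr18:60985135-60985170, toward the other end of the gene. Its control levels were 9.67, 9.44 and 9.47 and its treated levels 9.73, 9.65 and 9.56, and these ranges overlapped. Its log2 change was 0.06, 0.21 and 0.10, from 1 spot per array. The rule of the brightest probe thus left BCL2 among the genes that did not change, while the probe named by the RefSeq transcript fell. When each gene was instead represented by its brightest probe with a RefSeq accession, an alternative chosen after the values were seen, 2 members rose and 1 (BCL2) fell on the decitabine-labelled and combination arrays, beside 10.1 % and 13.3 % of all genes called in either direction. The 2 probes lie in distant stretches of the gene, and the cause of their difference was not tested.

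**Figure D2:**
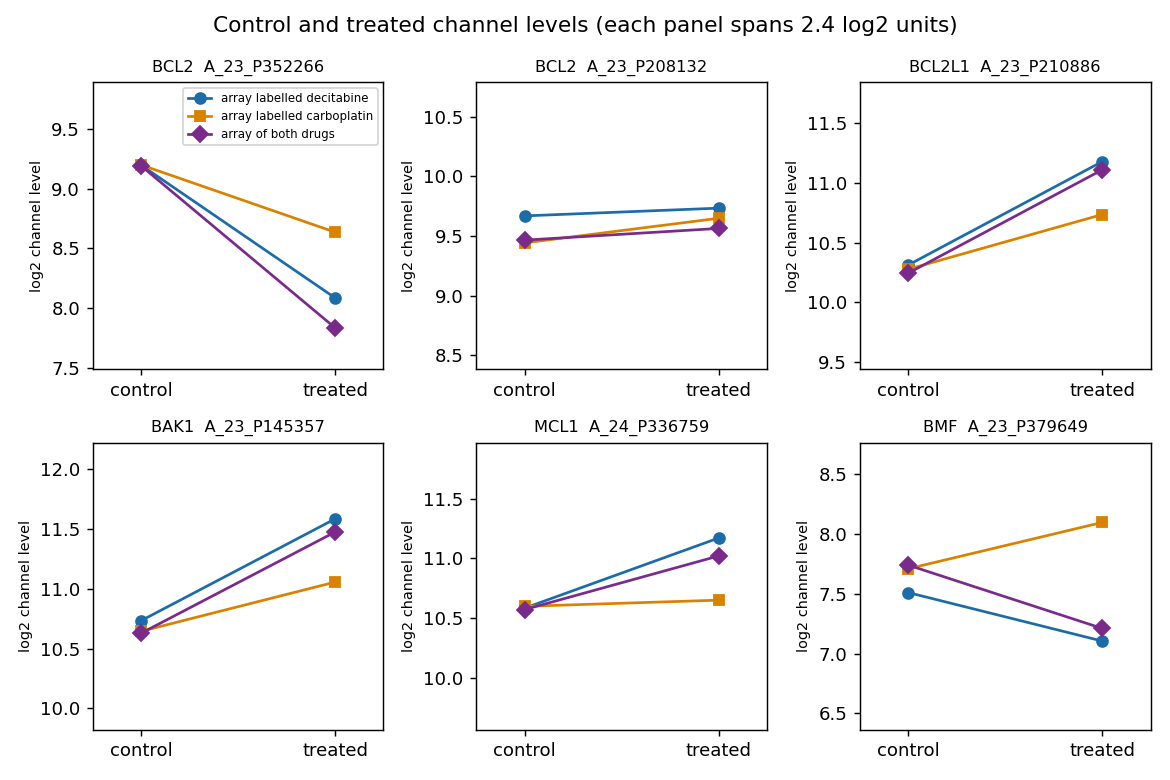
Log2 channel level (y axis, its own range in each panel, always 2.4 log2 units high) of the control and the treated channel of 6 probes, with 1 line per array. Control levels of BCL2 A_23_P352266 coincide at 9.19 to 9.20 and all treated levels are lower. BCL2L1 and BAK1 rise, and BMF moves up on 1 array and down on the others. MCL1 A_24_P336759, which is not the brightest MCL1 probe, rises on the decitabine-labelled and combination arrays and moves by 0.05 on the carboplatin-labelled array.

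BCL2L1, whose long product BCL-XL is the survival member that many solid tumours depend on, rose. Its probes are named by different RefSeq transcripts, and which product the added RNA encodes was not tested. Probe A_23_P210886 at chr20:30253324-30253383 (minus strand) had 8 spots outside columns 1 to 9. Its control levels were 10.3, 10.3 and 10.2 and its treated levels 11.2, 10.7 and 11.1 on the 3 arrays. Every treated level was above every control level. The log2 change was 0.87 ± 0.0199 (SD of 8 spots), a 1.82-fold rise, on the decitabine-labelled array. On the combination array it was 0.86 ± 0.0828, again 1.82-fold. On the carboplatin-labelled array it was 0.46 ± 0.022, or 1.37-fold, under the mark. The second probe, A_24_P100130 at chr20:30309915-30309974, gave 0.66, 0.17 and 0.75, so both probes passed 1.5-fold on the same arrays. Centred on the array's median, the first probe gave 0.45 and 0.44 on the decitabine-labelled and combination arrays, a rise below 1.5-fold. Lower changes than that of BCL2L1 were found in 97.7 %, 94.9 % and 96.6 % of all genes on the 3 arrays.

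BCL2 and BCL2L1 also show what columns 1 to 9 did to a probe. When all columns were normalized together, the 2 BCL2L1 spots in columns 4 and 9 of the decitabine-labelled array read 2.25 and 2.30, while its other spots averaged 0.85. The 4 BCL2 spots in these columns averaged 0.07, while the others averaged -1.12. A mean over all 10 spots would have put BCL2 at -0.64 and BCL2L1 at 1.14. On the carboplatin-labelled and combination arrays the edge spots of BCL2L1 averaged 0.45 and 0.87, beside 0.46 and 0.86 for the others. Over 109 unflagged edge spots of the probes with 10 spots, the median shift against the same probe's other spots was 1.30 on the decitabine-labelled array, and -0.04 and 0.03 over 264 and 265 such spots on the carboplatin-labelled and combination arrays.

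**Figure D3:**
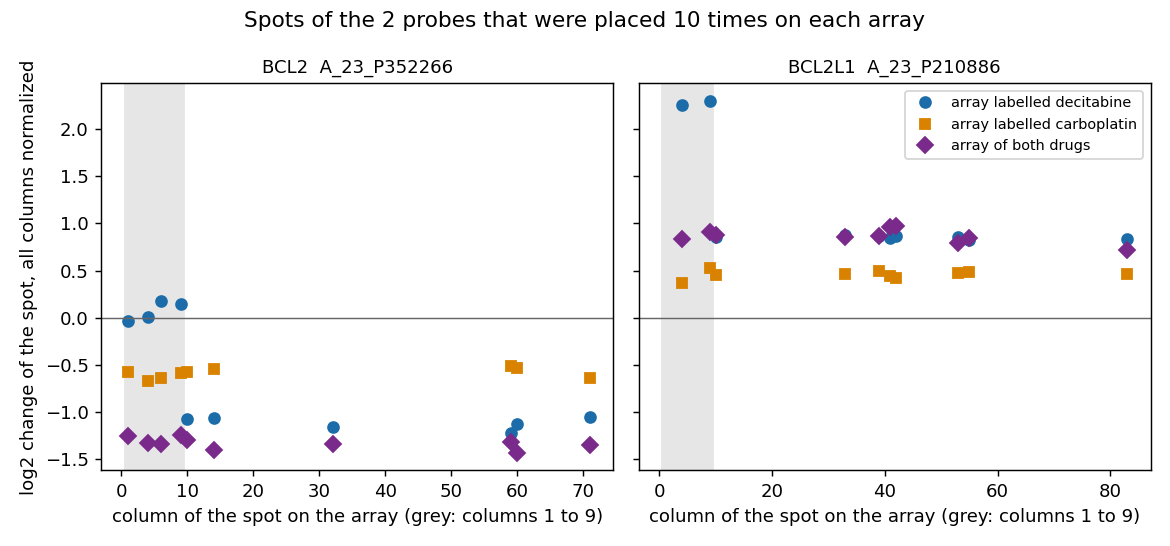
Log2 change of each spot (y axis, normalized over all columns) against its column on the array (x axis) for the BCL2 and BCL2L1 probes placed 10 times, with 1 symbol per array and columns 1 to 9 shaded. In the shaded columns the spots of the decitabine-labelled array sit above those of the same probe elsewhere, at 0.07 on average against -1.12 for BCL2, and the other arrays show no such step.

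MCL1, a survival protein that is made and degraded quickly, changed less, and its probes differed. The brightest, A_24_P336754 at chr1:150547228-150547287, had control levels of 14.7, 14.8 and 14.6 and treated levels of 15.0, 14.5 and 14.8, which overlapped. Its log2 change was 0.27, -0.30 and 0.22. Probe A_24_P336759 at chr1:150547622-150547681 went from control levels of 10.6 on each array to 11.2, 10.7 and 11.0, from 1 spot per array. Its highest control level was 10.598 and its lowest treated level 10.65, both on the carboplatin-labelled array. That gap is smaller than the pooled spot SD of that array, 0.0736, and median centring gave -0.36 there. The change of this probe reached 1.5-fold on the decitabine-labelled array, at 0.59. It was 0.05 and 0.45 on the carboplatin-labelled and combination arrays. It fell short of that mark in 3 of 6 other settings, with values from 0.17 to 0.61. The other MCL1 probe, A_24_P319635 at chr1:150550738-150550797, lies only in column 8. It read 1.76 on the decitabine-labelled array, but -0.15 and 0.04 on the other arrays. Repeated probes had 4 spots in the same column within 50 rows, which had shifted by 1.24 to 1.51 on that array, and less their median the MCL1 probe read 0.27.

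BAK1 encodes an effector that opens the outer membrane once the survival proteins release it. Its 1 probe, at chr6:33540585-33540644 (minus strand), had control levels of 10.7, 10.6 and 10.6 and treated levels of 11.6, 11.1 and 11.5. All treated levels were above all control levels. Its signal changed by 0.85, 0.41 and 0.85 log2 units, or 1.80-fold, 1.33-fold and 1.80-fold, from 1 spot per array. With median centring these became 0.43, -0.01 and 0.41.

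BAK1, which encodes an effector, and BCL2L1, whose long product restrains it, moved by nearly the same amounts. Likeness was measured as the Euclidean distance between the 3 log2 changes, over 12171 genes well above background in each channel of every array. For BCL2L1 the nearest gene was BAK1 at 0.0512, followed by TGIF1 at 0.0602 and PLAAT3 at 0.0705. For BAK1 the nearest were BCL2L1, PLAAT3 at 0.0569 and KCNAB2 at 0.0591. These distances are smaller than the pooled spot SD of 1 array, so the order among these neighbours is not resolved.

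The 250 bases before the RefSeq starts (GRCh38.p14) of BCL2L1 and BAK1 are shown, with CG, the dinucleotide that DNA methyltransferases modify, in capitals. Whether promoter sequence bears on their changes was not tested. Of the 9 genes, 7 have an entry in the promoter table used. For BCL2L1 the start site farther upstream of the 2 listed was taken.
BCL2L1, chr20:31723964-31724213, minus strand: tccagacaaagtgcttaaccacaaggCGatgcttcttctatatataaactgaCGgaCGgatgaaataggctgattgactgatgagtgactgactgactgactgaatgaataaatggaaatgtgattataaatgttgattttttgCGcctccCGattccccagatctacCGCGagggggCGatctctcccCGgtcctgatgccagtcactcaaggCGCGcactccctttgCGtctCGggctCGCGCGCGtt
BAK1, chr6:33580277-33580526, minus strand: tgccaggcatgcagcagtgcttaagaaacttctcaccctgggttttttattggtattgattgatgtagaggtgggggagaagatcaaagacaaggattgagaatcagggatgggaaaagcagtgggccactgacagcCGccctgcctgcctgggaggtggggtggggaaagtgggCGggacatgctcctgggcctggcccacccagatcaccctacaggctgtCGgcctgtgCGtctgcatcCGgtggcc

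The BCL2L1 stretch holds 17 CG and the BAK1 stretch 5, most of them in the part nearer the start. In the full window of 300 bases, which runs 50 bases past the start, BCL2L1 has 20 CG and BAK1 has 7, where the median of 35116 promoters is 14. Fewer CG than BCL2L1 were found in 58.8 % of promoters, and fewer than BAK1 in 36.8 %. The other listed start of BCL2L1 has 16 CG in its window, and 52.5 % of promoters have fewer. BCL2L11 had the most of the 7 genes with an entry, 39, more than 91.3 % of promoters, and BCL2 had 31. BMF has 1 CG at one listed start and 31 at the other, BAD 24 and 21 at its 2 starts, and HRK 25. CG reads the same on each strand, and these counts describe sequence, since no methylation was measured here.

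BCL2L11 encodes BIM, a BH3-only protein that binds all survival members. Its brightest probe, A_24_P122921 at chr2:111925892-111925951, had control levels of 11.5, 11.4 and 11.4 and treated levels of 11.7, 11.4 and 11.4, which overlapped. Its log2 change was 0.20, -0.00 and -0.04. Probes A_23_P154426 and A_23_P309991 were higher in treated cells on every array, without overlap between treated and control levels. The share of all genes with such a separation was not counted. A_23_P154426 gave 0.40, 0.17 and 0.45, and A_23_P309991 gave 0.34, 0.21 and 0.26. No BCL2L11 probe outside columns 1 to 9 reached 1.5-fold on any array.

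The overlapping pair of BCL2L11 probes gives a check of the edge with nearly the same coding sequence, since they share 46 bases (chr2:111921732-111921777) and lie at different places on the array. The shared bases are in capitals.
A_23_P309991, outside the edge: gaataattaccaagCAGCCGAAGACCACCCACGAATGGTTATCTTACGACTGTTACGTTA
A_23_P425954, column 4: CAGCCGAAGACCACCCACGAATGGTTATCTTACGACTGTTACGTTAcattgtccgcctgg

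Normalized over all columns, A_23_P309991 read 0.33, 0.21 and 0.26 and A_23_P425954 read 1.14, 0.20 and 0.47 on the 3 arrays. The pair differed most on the decitabine-labelled array. A further BCL2L11 probe, A_23_P309996 in column 3, read 1.37 there and -0.31 and 0.45 on the other arrays.

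BAD, a BH3-only protein held inactive by phosphorylation and 14-3-3 binding, stayed close to its control. Its probe at chr11:64037522-64037581 had control levels of 13.3, 13.4 and 13.3 and treated levels of 13.1, 13.4 and 13.2. These give log2 changes of -0.19, 0.08 and -0.16, with overlapping levels. With median centring it was -0.66 and -0.66 on the decitabine-labelled and combination arrays.

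BIK encodes a BH3-only protein found mainly at the endoplasmic reticulum. Its only probe, at chr22:43525495-43525554, lies in column 9, so it has no main value. Normalized over all columns, its control levels were 10.4, 10.6 and 10.5 and its treated levels 10.9, 11.1 and 11.3. The treated levels were above all control levels. The log2 change was 0.52, 0.50 and 0.86, and it passed 1.5-fold on the combination array. At this place on the decitabine-labelled array the edge was not visibly shifted: 10 spots of repeated probes in the same column within 50 rows differed from their own other spots by a median of -0.02 (-0.39 to 0.20). Less that shift BIK read 0.54, and less the median of its whole column 0.14. On the combination array these alternatives gave 0.84 and 0.83.

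BMF, a BH3-only protein tethered to the cytoskeleton, had opposite signs on the single-drug arrays, as the brightest probes of MCL1, BAD and HRK did. Its probe at chr15:40380450-40380509 had control levels of 7.51, 7.71 and 7.74 and treated levels of 7.11, 8.10 and 7.21. The treated level was the lowest of all on the decitabine-labelled array and the highest on the carboplatin-labelled array. The log2 change was -0.41, 0.39 and -0.53, a ratio of 0.755, 1.31 and 0.693, and none reached 1.5-fold. The scanner software's own ratio put it past that mark on each array, at -0.75, 0.60 and -0.96, and median centring did so on the combination array, at -0.62. The sign on each array was the same in all 9 alternatives. The control levels of this dim probe spanned 0.23, and the difference between arrays was not tested.

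HRK, a BH3-only protein best known from neurons, was read by probes that disagree on whether it is seen at all. Probe A_23_P25194 at chr12:117299053-117299112 was not well above background in either channel of any array. The coding probe A_24_P52882 at chr12:117318970-117319029 was well above background in each channel, with control levels of 11.3, 11.1 and 11.0 and treated levels of 11.1, 11.4 and 10.9. It is shown with G and C in capitals.
HRK A_24_P52882: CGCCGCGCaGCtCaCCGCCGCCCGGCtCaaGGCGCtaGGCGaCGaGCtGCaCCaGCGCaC

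These letters make up 76.7 % of the probe, more than in 99.7 % of the 41000 gene probes, whose median is 41.7 %. Its log2 change was -0.18, 0.24 and -0.06, with overlapping levels. Whether its signal is HRK RNA was not tested.

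With both drugs together, no member left the sum of the single-drug changes by 1.5-fold (0 of 8, beside 3.21 % of all genes). BCL2L1 and BAK1 changed by nearly the same amount on the combination array as on the decitabine-labelled array, which left them 0.46 and 0.42 log2 units below the sum. BMF lay 0.51 below it. MCL1 lay 0.24 above it by its brightest probe. A set of 14572 genes, or 83.5 % of all genes, was changed at least 1.5-fold on no array.

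Among 15 other family members fixed as a list, 14 were measured. On each array 3 rose, 0 fell and the same genes were concerned: BBC3, PMAIP1 and BAX. Of all genes, 5.12 %, 2.73 % and 7.39 % rose and 4.9 %, 1.41 % and 5.82 % fell on the 3 arrays. BBC3 encodes PUMA, a BH3-only protein, and its log2 change was 2.55, 0.69 and 2.11. PMAIP1, which encodes the MCL1-binding protein NOXA, gave 2.05, 0.61 and 1.72. BAX, the other effector beside BAK, gave 1.52, 0.71 and 1.81. These are known target genes of p53. The median of the list was 0.11, 0.01 and 0.02, and the members not called ranged from -0.30 to 0.50 on the decitabine-labelled array and the combination array.

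Genes that act next to the family were counted in the same way and stand beside the same shares of all genes. Of 7 inhibitors of apoptosis, 1 rose and 2 fell on the decitabine-labelled array, 0 changed on the carboplatin-labelled array, and 1 rose and 1 fell on the combination array. BIRC3 gave 1.51, -0.43 and 1.28, and BIRC5, which encodes survivin and is made in dividing cells, gave -1.20, -0.01 and -1.16. Of 19 partners, kinases and ligases that bind or modify members, 3, 4 and 5 rose and 0 fell on the 3 arrays. FBXW7, part of a ligase that marks MCL1 for degradation, gave 1.41, 0.10 and 1.24. SFN, a 14-3-3 protein, gave 1.29, 1.07 and 1.16. The kinases PIM2 and RPS6KA1, which can phosphorylate BAD, gave 1.01, 0.61 and 0.80 and 0.47, 0.63 and 0.79.

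The lists that follow also stand beside these shares of all genes. Downstream, 13 genes of the apoptosome, the caspases and the proteins that mitochondria release gave 1, 1 and 0 rises and no fall. The 11 genes of the outer membrane and of mitochondrial dynamics gave 1, 0 and 0 rises, and the 11 transcription factors known to act on members gave 1, 0 and 0, with no fall in any of these. Their medians lay between -0.09 and 0.20.

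**Figure D4:**
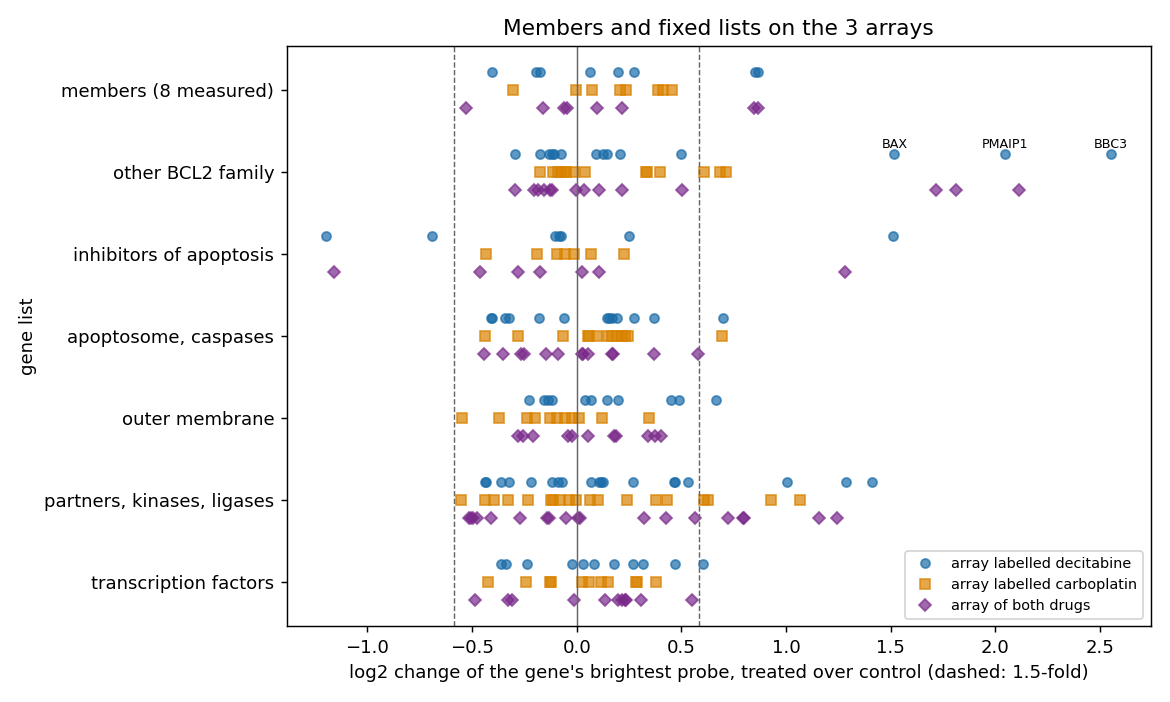
Log2 change of each gene's brightest probe (x axis, dashed lines at 1.5-fold) for the 8 measured members and the 6 fixed lists (y axis), with 1 symbol per array. BBC3, PMAIP1 and BAX stand to the right of every member, at 1.52 to 2.55 on the decitabine-labelled array, and most other genes lie between the dashed lines.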

How the data were processed

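Per the file headers, the deposited scanner files give the mean spot intensity and the median local background of each channel, read by Agilent Feature Extraction 9.5.3.1 (8.5.1.1 in the submitters' processing notes). The same deposited files hold background-subtracted, detrended and dye-normalized intensity and the log10 ratio of red over green. The authors' table gives a log2 ratio per probe, loess normalized with limma and agilp (R 3.0.2 in the notes). Its direction, which is not stated, was set so that it correlates positively with treated over control in the scanner files (0.908 to 0.959). Here, R 4.3.3 and limma 3.58.1 corrected background (normexp, offset 50), left out control spots, outlier flags and columns 1 to 9, and applied loess within each array. Spots of a probe were averaged, and channel levels came from Aquantile scaling. The offset understates the change of dim probes. Gene names came from the accession, symbol or synonym of a RefSeq table for 29381 of 41000 probes. On the 3 arrays 68.2 to 70.3 % of control and 65.8 to 68.5 % of treated spots were well above background. With 3 arrays, their number limits the precision. All 9 genes are named, with at most 4 genes per list (largest change with both drugs among those past 1.5-fold and above background) and the 3 nearest genes of each member changed on at least 2 arrays. The genes and lists were chosen with earlier results of these data known. Settings were checked on simulated data, and alternatives concerned columns, normalization, background, source of the ratio, outlier flags, choice of probe and dim probes.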

Additional observations from a re-analysis of the deposited data

How the results depend on the processing

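The counts of changed members kept within 1.5 times of the reported value on the decitabine-labelled and combination arrays (2 or 3 under 9 alternatives), although with median centring the 2 were falls. On the carboplatin-labelled array the count of 0 became 1 with median centring (MCL1 at -0.87) and 1 with the scanner's log ratio (BMF at 0.60), while the share of all genes called went from 4.14 % to 21.5 % and 13.7 %. The count of members 1.5-fold from the sum, 0, became 1 with all columns of spots, 1 with median centring and 1 with the scanner's log ratio, where 9.32 %, 27.1 % and 16.6 % of all genes did so, against 3.21 %. Median centring also moved the median of all genes by over 0.1. With the mean of all probes, BCL2 fell to -0.63 on the combination array. BCL2L1 and BAK1 lost their calls on the decitabine-labelled and combination arrays with median centring alone, with values from 0.41 to 0.45. No called change turned its sign. No paired analysis was possible because each treatment has 1 array, and no replicate could be left out. The offset shrinks the changes of dim probes.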
